A study of Mus musculus with 12 samples.

Results

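Lungs of mice given busulfan and then alginate oligosaccharides (AOS) were compared with lungs of untreated mice across all genes, by RNA sequencing. The comparison takes 6 of the 12 libraries of the series, chosen by their labels alone. The combined group, 3 libraries, came from animals dosed with busulfan at 40 mg/kg a single time and afterwards with AOS at 10 mg/kg for 5 weeks, and the control group, 3 libraries, from animals without treatment. The other libraries, 3 of AOS alone and 3 of busulfan alone at these doses, share the estimate of the spread. The titles name the busulfan group BA0 where the design text has B0, and it was taken to be busulfan alone, an assumption behind every value given for that group. All animals are of the strain that the labels spell "IRC mouse", and the labels give no sex, age, genetic change or interval between busulfan and tissue collection. The tissue field reads "Cells" while the titles and the extraction protocol name lung. Whether the 3 libraries of a group come from separate animals is not in the labels, so the p-values measure only the spread between these libraries, which may be technical.

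Busulfan alkylates DNA, links its strands and is given to empty the bone marrow ahead of a transplant. AOS are short sugar chains obtained from alginate, the gelling polysaccharide of brown seaweed. Damaged DNA activates p53, a transcription factor whose targets stop the cell cycle, repair DNA or kill the cell. Unfolded protein is met by separate programmes: in the endoplasmic reticulum, sensors switch on chaperones that fold secreted proteins, and in the cytosol the factor Hsf1 switches on the heat shock proteins. B cells, which arise in the bone marrow, are present in lung in follicles and in the circulating blood.

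Library totals ranged from 16209221 to 17168764 estimated counts over the 12 libraries, and levels are given as CPM, that is counts relative to the TMM-scaled library total. Lung identity was checked with marker lists: the summed level of 14 alveolar type 2 genes was 20910 to 27490 CPM in controls and 25680 to 27450 CPM in the combined group, and that of 15 alveolar type 1 genes 8507 to 9358 and 9714 to 10160 CPM. Several libraries stood apart. The first principal component of log2 CPM, with 21.0% of the variance, placed combined replicate 1 at -15.7, among the control and AOS libraries (-31.6 to -5.49), and combined replicates 2 and 3 at 18.7 and 20.7, nearer the busulfan libraries (26.8 to 47.3). The summed level of 11 skeletal muscle genes was 3922 CPM in control replicate 2 against 47.2 and 301 CPM in the other controls, and that of 12 liver genes 1184 CPM in control replicate 3 against 83.7 and 121 CPM. In the combined group the muscle sum was 72.5, 26.0 and 649 CPM and the liver sum 834, 177 and 51.3 CPM, and 0 muscle and 0 liver genes passed the test. Their part in the results below was not tested.

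Of 15863 genes tested, 648 differed between the combined group and control, 4.08% of all, at a Benjamini-Hochberg adjusted p under 0.05 in the quasi-likelihood test of edgeR. Of these, 386 rose (2.43% of all genes tested) and 262 fell (1.65%), while upper-quartile scaling, which moved the median log2 fold change of all genes from -0.01 to -0.05, gave 295 higher and 377 lower. A log2 fold change of at least 1 was reached by 66 of the genes that rose (0.416% of all) and 68 of those that fell (0.429%). Between the combined group and control, the 3 values of each group did not overlap for 26.2% of all genes tested. This share is the background for statements below on overlap of single genes between these groups. For overlap of summed levels, or with the busulfan and AOS libraries, no share over all genes was computed. Leaving out a single library of the 12 changed the total strongly. Dropping control replicates 1, 2 and 3 in turn gave 203, 129 and 261 calls, dropping AOS replicates 1 and 2 gave 380 and 385, and dropping combined replicates 1 and 2 gave 179 and 171. A call in every one of those 12 fits was kept by 100 genes (0.630% of those tested), 67 higher and 33 lower. Of the 648 genes, 105 belonged to the 45 lists used here for description, and each list is read against the shares of all genes. The lists were chosen with earlier results of these data known, so such shares describe the lists and are not a test of them.

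**Figure D1:**
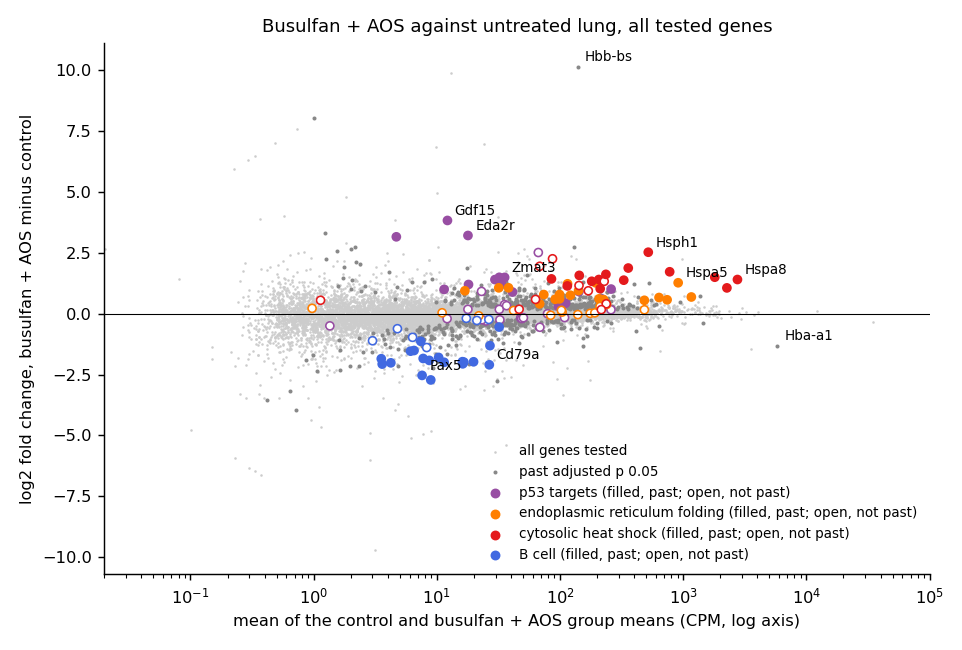
Log2 fold change of the combined group over control (vertical axis) against the mean of the 2 group means in CPM (horizontal, log axis), 1 point per tested gene. Darker points passed the test, and members of 4 lists are coloured, filled where they passed. Filled p53, endoplasmic reticulum and heat shock members lie above 0 and filled B cell members below 0.

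Targets of p53 were among the genes raised most. Of 33 measured targets 15 rose (background 2.43%) and 0 fell, with a median log2 fold change of 0.37 against -0.01 for all genes. Counts and medians differed by role, but the ranges overlapped. Of 20 genes that act in death or arrest of the cell 12 rose, with a median of 0.91 and values from -0.56 to 3.21. For feedback, repair and metabolism 3 of 13 rose, with a median of -0.16 and values from -0.50 to 3.83. The list's count was 11 to 16 when a library was left out.

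Zmat3, which encodes a zinc finger protein that binds RNA, stood at 17.5, 18.5 and 19.9 CPM in controls and 48.4, 56.4 and 52.4 CPM in the combined group. The groups were far apart, and the log2 fold change was 1.49 (SE 0.07, edgeR adjusted p = 8.65e-06), the smallest p of the comparison. Psrc1, a gene of a microtubule-associated protein, was low in controls at 0.723, 1.03 and 1.06 CPM and reached 8.01, 6.94 and 10.4 CPM (log2 fold change 3.16, SE 0.26). Gdf15, a secreted stress cytokine, had the largest log2 fold change of the list at 3.83 (SE 0.33), from 1.27, 1.28 and 2.25 CPM to 24.2, 25.6 and 18.7 CPM. Eda2r, a membrane receptor for ectodysplasin A2, rose by 3.21 (SE 0.23).

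The killing arm was represented by Bax, which opens the outer mitochondrial membrane, and by the activators Pmaip1 and Bbc3. Bax stood at 28.2 to 29.5 CPM in controls and 52.2 to 54.4 CPM in the combined group (log2 fold change 0.89, SE 0.07). Pmaip1 rose by 1.40 (SE 0.21) and Bbc3 by 1.00 (SE 0.18, edgeR adjusted p = 0.0191), the latter call ending without control replicate 2 or 3 or combined replicate 2 (edgeR adjusted p up to 0.0759). Aen, a nuclease, and Phlda3, a repressor of Akt signalling, rose by 1.22 (SE 0.09) and 1.49 (SE 0.12). Mdm2, the ligase that marks p53 for destruction, rose only slightly, by 0.30 (SE 0.07, edgeR adjusted p = 0.0403), and was past the threshold in 5 of the 12 fits, losing its call on omission of replicate 1 or 2 of control, AOS or the combined group or of busulfan replicate 2 (edgeR adjusted p up to 0.125).

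Cdkn1a, the inhibitor of cyclin-dependent kinases that p53 induces, did not pass (edgeR adjusted p = 0.0651). Its level was 21.6, 12.9 and 25.1 CPM in controls and 168, 152 and 20.3 CPM in the combined group. Combined replicate 3 therefore lay within the control values for this gene, although the same library was high for Zmat3, Gdf15 and Psrc1. No member of a list of 33 cell cycle genes passed in either direction (median 0.31), and DESeq2 and limma-voom called 0 of them as well. Without busulfan replicate 3 edgeR called 1 higher. Of 23 genes for repair of DNA crosslinks, the lesion busulfan makes, 1 fell (background 1.65%) and 0 rose. That gene was Fancb, a subunit of the Fanconi core complex, at 9.82, 9.24 and 7.87 CPM in controls and 4.82, 6.16 and 5.12 CPM in the combined group (log2 fold change -0.74, SE 0.14), and its call ended without control replicate 1 or 2 or combined replicate 1 or 3 (edgeR adjusted p up to 0.0791).

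Genes for folding in the endoplasmic reticulum rose together. Of 33 measured 20 rose (background 2.43%) and 0 fell, with a median log2 fold change of 0.57, and the count was 18 to 21 when a library was left out. All 12 chaperone genes of the list rose, with a median of 0.74, and in each of them the groups did not overlap. Disulfide enzymes rose in 3 of 7 cases, degradation genes in 3 of 8, and sensors and transcription factors in 2 of 6. The sensor genes Ern1, Atf6 and Eif2ak3 had log2 fold changes of -0.07, 0.07 and 0.13 and did not pass, while the transcription factor genes Xbp1 and Ddit3 rose by 0.61 (SE 0.09) and 1.06 (SE 0.14).

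Hspa5, the main chaperone of the compartment, stood at 494, 545 and 561 CPM in controls and 1397, 1238 and 1222 CPM in the combined group. Every combined value was above 2 times the highest control value, and the log2 fold change was 1.27 (SE 0.11, edgeR adjusted p = 5.85e-04). Manf, a secreted protein that binds Hspa5, rose from 67.7, 70.6 and 68.6 CPM to 176, 149 and 160 CPM (log2 fold change 1.23, SE 0.10). Herpud1, which takes part in disposal of misfolded protein, rose by 1.27 (SE 0.15), from 106, 118 and 118 CPM to 332, 256 and 236 CPM. The large chaperone genes Hsp90b1 and Calr rose less, by 0.68 (SE 0.08) and 0.66 (SE 0.07), but from levels of 893 ± 7.55 and 493 ± 19.2 CPM (SD, n = 3).

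The Hspa5 promoter is shown because it holds the element through which this response is known to act. It lies on mouse GRCm38.p6 at chr2:34771840-34772139, plus strand, from 250 bases before to 50 bases after the start of the gene, with the endoplasmic reticulum stress element in capitals, CCAAT and CCACG with 9 bases between them (sequence from RefSeq).
Hspa5: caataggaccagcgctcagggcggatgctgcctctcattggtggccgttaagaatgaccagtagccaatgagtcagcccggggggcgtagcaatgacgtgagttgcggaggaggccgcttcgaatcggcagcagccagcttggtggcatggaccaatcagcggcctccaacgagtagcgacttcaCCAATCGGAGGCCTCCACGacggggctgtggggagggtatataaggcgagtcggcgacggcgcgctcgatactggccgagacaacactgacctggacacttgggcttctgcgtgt

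Promoters of the same length from RefSeq (GRCm38.p6) could be matched for 12007 of the tested genes, 15277 promoters in all, and were searched on both strands. CCAAT with CCACG after 9 bases was in 22 promoters (0.144%), 1 for each of 22 genes (0.183% of genes). Of the 311 genes that rose and had a promoter 8 held it, and of the 197 that fell 0 did. Of 28 members of the folding list with a promoter 10 held it: the 8 were Calr, Canx, Creld2, Dnajc3, Hsp90b1, Hspa5, Pdia6 and Syvn1, and the others were Derl3 and Ero1lb, with log2 fold changes of 0.22 (SE 0.48) and -0.09 (SE 0.10). A related element, ATTGG with CCACG after 1 base, was in 9 promoters (0.0589%), among them those of Herpud1 and Dnajb11, which rose. The matches below are written along the strand of the gene with 8 bases on either side, so the reverse complement appears where the element lies on the opposite strand, and positions count from the first base of the gene as 0. They are shown so that the bases between the fixed ends, which the search left free, can be compared. A match describes these letters and is not a binding site.
Creld2, chr15:88819512-88819546, plus strand, element on the opposite strand, -126 to -108: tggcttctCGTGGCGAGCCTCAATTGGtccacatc
Hsp90b1, chr10:86705630-86705664, minus strand, element on the same strand, -212 to -194: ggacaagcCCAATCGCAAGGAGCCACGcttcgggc
Hsp90b1, chr10:86705525-86705559, minus strand, element on the opposite strand, -107 to -89: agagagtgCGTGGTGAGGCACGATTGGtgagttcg
Calr, chr8:84847067-84847101, minus strand, element on the opposite strand, -162 to -144: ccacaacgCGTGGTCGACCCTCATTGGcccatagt
Syvn1, chr19:6046524-6046558, plus strand, element on the same strand, -44 to -26: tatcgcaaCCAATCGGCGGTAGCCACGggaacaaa
Herpud1, chr8:94386369-94386395, plus strand, second element on the same strand, -52 to -42: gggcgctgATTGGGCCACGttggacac

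**Figure D2:**
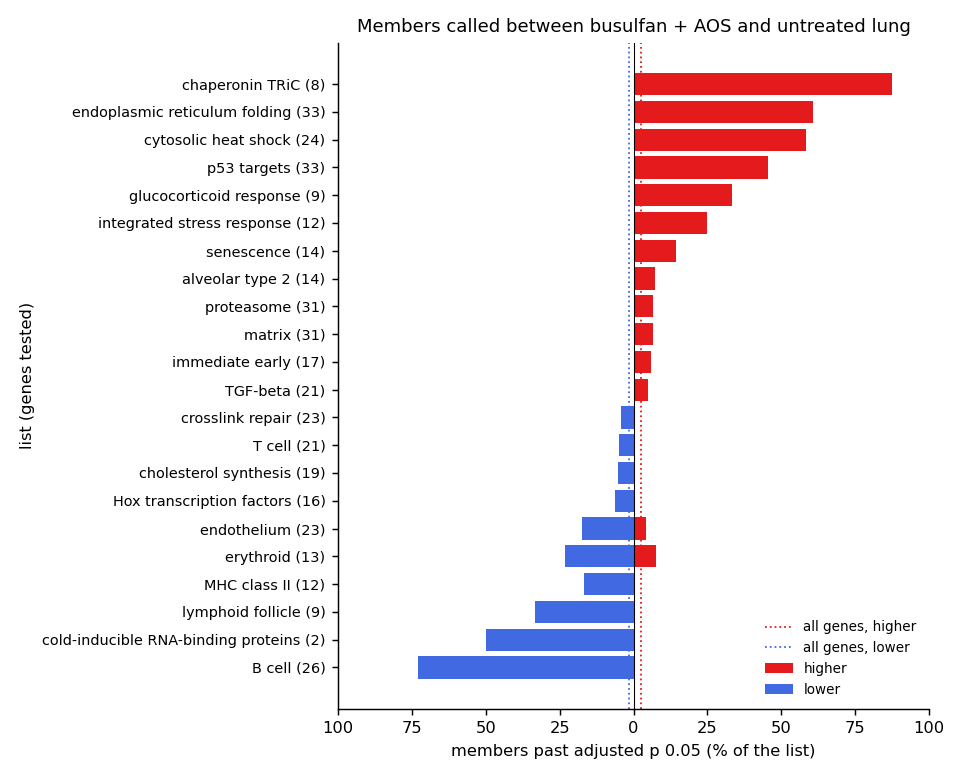
Share of each list's tested members past the threshold in percent, higher to the right and lower to the left, for the 22 lists with at least 1 such member (number tested in parentheses). Dotted lines mark the shares of all genes, 2.43% higher and 1.65% lower. Chaperone lists and p53 targets extend furthest right and B cell genes furthest left.

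Heat shock chaperones of the cytosol and mitochondria had the largest median of the raised lists with more than 10 called members, at a log2 fold change of 1.35. Of 24 measured 14 rose (background 2.43%) and 0 fell. All 24 had a fold change above 0, against 7705 of all 15863 genes. The summed level of the list was 5879, 5647 and 7482 CPM in controls and 21890, 14340 and 12230 CPM in the combined group, so combined replicate 1 was the highest of all 12 libraries. Control replicate 3 was the highest control for Hsph1, Hspa8, Hsp90ab1, Hspa1a and Dnajb1. The count of members past the threshold depended on single libraries: 1 was called on dropping control replicate 1 or 2, 6 on dropping control replicate 3, 8 on dropping AOS replicate 1 or 2 and 3 on dropping combined replicate 1 or 2, against 17 on dropping combined replicate 3. The fit of only the compared groups called 6.

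Hsph1, which reloads Hsp70 chaperones with nucleotide, stood at 114, 110 and 238 CPM in controls and 1393, 752 and 514 CPM in the combined group (log2 fold change 2.52, SE 0.56, edgeR adjusted p = 0.0377). Its groups did not overlap, but the call held in 4 of the 12 fits made with a library omitted and was lost on dropping any of the controls, busulfan replicate 2, or replicate 1 or 2 of the AOS or combined group (edgeR adjusted p up to 0.125). Chordc1, a partner of Hsp90, was the member whose call held in all 12 fits, at 66.0, 75.1 and 75.3 CPM in controls and 265, 204 and 174 CPM in the combined group (log2 fold change 1.57, SE 0.22). Hspa8, the constitutive Hsp70 of the cytosol, rose from 1513 ± 288 to 3999 ± 1027 CPM (SD, n = 3), and lost its call without control replicate 1 or 2, where its highest adjusted p in edgeR was 0.0635. Hsp90ab1, the constitutive Hsp90, rose from 1468 ± 174 to 3057 ± 598 CPM, and lost its call without replicate 1 or 2 of either group (highest edgeR adjusted p 0.0750).

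The stress-inducible Hsp70 genes did not pass. Hspa1a stood at 16.1, 13.1 and 61.1 CPM in controls and 214, 127 and 89.6 CPM in the combined group (edgeR adjusted p = 0.0953), and Hspa1b at 16.4, 8.76 and 59.4 against 157, 94.1 and 74.7 CPM (0.156 by the same test). These neighbours are near-identical copies, so the split of reads between them is uncertain. Dnajb1, a co-chaperone of the same system, was at 100, 81.0 and 209 CPM in controls and 514, 273 and 193 CPM in the combined group (edgeR adjusted p = 0.133), and its groups overlapped through control replicate 3. The gene of the regulator Hsf1 itself had a log2 fold change of 0.18 (SE 0.09).

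The heat shock element, searched as GAA, TTC and GAA with 2 bases between the parts on both strands, was in 71 of the 15277 promoters (0.465%) and at 65 of 12007 genes (0.541%). Of 311 genes that rose 4 held it (Chordc1, Hspd1, Hspe1 and Hsph1), and of 197 that fell 0 did. These are 4 of the 19 heat shock members with a promoter. Hspd1 and Hspe1, which encode the mitochondrial chaperonin and its lid, start back to back on chromosome 1 and share the same stretch. Their levels moved in parallel: Hspd1 was at 699, 418 and 308 CPM in combined replicates 1, 2 and 3 and Hspe1 at 195, 95.8 and 82.0 CPM, against 183 ± 29.3 and 46.2 ± 4.58 CPM in controls (SD, n = 3). Both lost their calls without any of the controls, busulfan replicate 2, or replicate 1 or 2 of the AOS or combined group, and Hspe1 also without AOS replicate 3 (highest edgeR adjusted p 0.118 and 0.116). The promoters of Hspd1, Hspe1 and Chordc1 hold further matches that overlap the one printed, and the 1 printed for each gene (capitals, RefSeq, GRCm38.p6) is written along the gene with 8 bases on either side.
Hspe1, chr1:55088056-55088084, plus strand, element on the same strand, -84 to -72: ccgttctaGAACCTTCCGGAAggccccgc
Hspd1, chr1:55088051-55088079, minus strand, element on the same strand, -139 to -127: gccttccgGAAGGTTCTAGAAcggaccgt
Hsph1, chr5:149636280-149636308, minus strand, element on the opposite strand, 15 to 27: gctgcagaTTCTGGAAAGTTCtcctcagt
Chordc1, chr9:18292255-18292283, plus strand, element on the same strand, -4 to 8: tgcaaccgGAACGTTCGGGAAaattcctg

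Further stress and protein quality control lists had fewer calls that held without single libraries. Their counts are read against the 2.43% of all genes that rose. Of 8 subunits of TRiC, the chaperonin that folds actin and tubulin, 7 rose and 0 fell, with a median log2 fold change of 0.37, and 7 had groups that did not overlap. The subunit Cct3 rose from 84.2 ± 3.63 to 132 ± 13.9 CPM (SD, n = 3; log2 fold change 0.65, SE 0.10). For TRiC, dropping control replicates 1, 2 and 3 in turn gave 1, 0 and 2 calls, and dropping combined replicate 1 or 2 gave 1, as did the fit of only the compared groups. Of 31 proteasome genes 2 rose, the lid subunits Psmd13 by 0.48 (SE 0.08) and Psmd11 by 0.22 (SE 0.05), with a list median of 0.09; the first call ended without control replicate 2 (edgeR adjusted p = 0.0530), and the second held only without busulfan replicate 1 or 3 (otherwise up to 0.127). Of 12 genes of the integrated stress response, which acts through Atf4, 3 rose (Sesn2, Asns and Mthfd2), with a list median of 0.80. On dropping any control, any AOS replicate or combined replicate 1 or 2, 1 was called, against 4 on dropping combined replicate 3, and limma-voom and the fit of only the compared groups called 1. Sesn2, a regulator of growth signalling, rose from 11.2, 8.82 and 12.9 CPM to 26.1, 27.4 and 22.0 CPM (log2 fold change 1.20, SE 0.14). The pseudokinase gene Trib3 stood at 3.31, 5.60 and 3.55 CPM in controls and 9.64, 7.54 and 6.95 CPM in the combined group without passing (edgeR adjusted p = 0.0738). The glutathione-degrading enzyme gene Chac1 was at 15.2 CPM in combined replicate 1 and at 6.88 and 4.42 CPM in the others, against 3.43 to 5.23 CPM in controls.

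**Figure D3:**
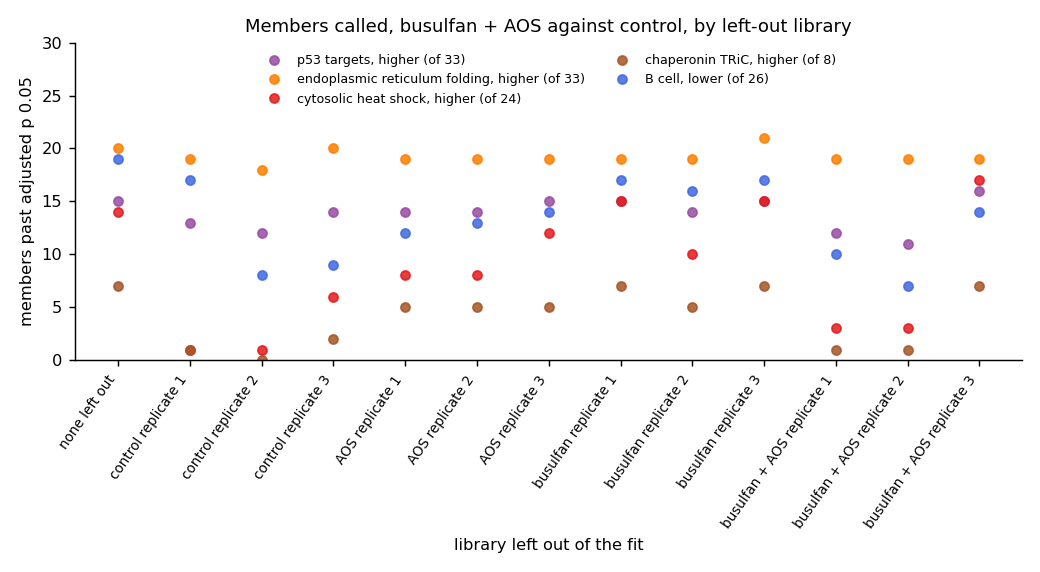
Members past adjusted p 0.05 between the combined group and control, from 5 lists, in the fit of all 12 libraries (far left) and in each fit without 1 library (horizontal axis). Folding genes stay between 18 and 21 and p53 targets between 11 and 16, while heat shock genes range from 1 to 17 and B cell genes from 7 to 19.

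Cirbp, which encodes an RNA-binding protein induced by mild cold, fell. Its gene lies at chr10:80165990-80172786 (GRCm38). It stood at 39.3, 36.7 and 39.2 CPM in controls and 19.2, 20.8 and 22.5 CPM in the combined group (log2 fold change -0.88, SE 0.12, edgeR adjusted p = 0.00544), with groups far apart and the call kept in all 12 fits without a library. Its relative Rbm3 had a log2 fold change of -0.20 (SE 0.09) and did not pass.

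**Figure D4:**
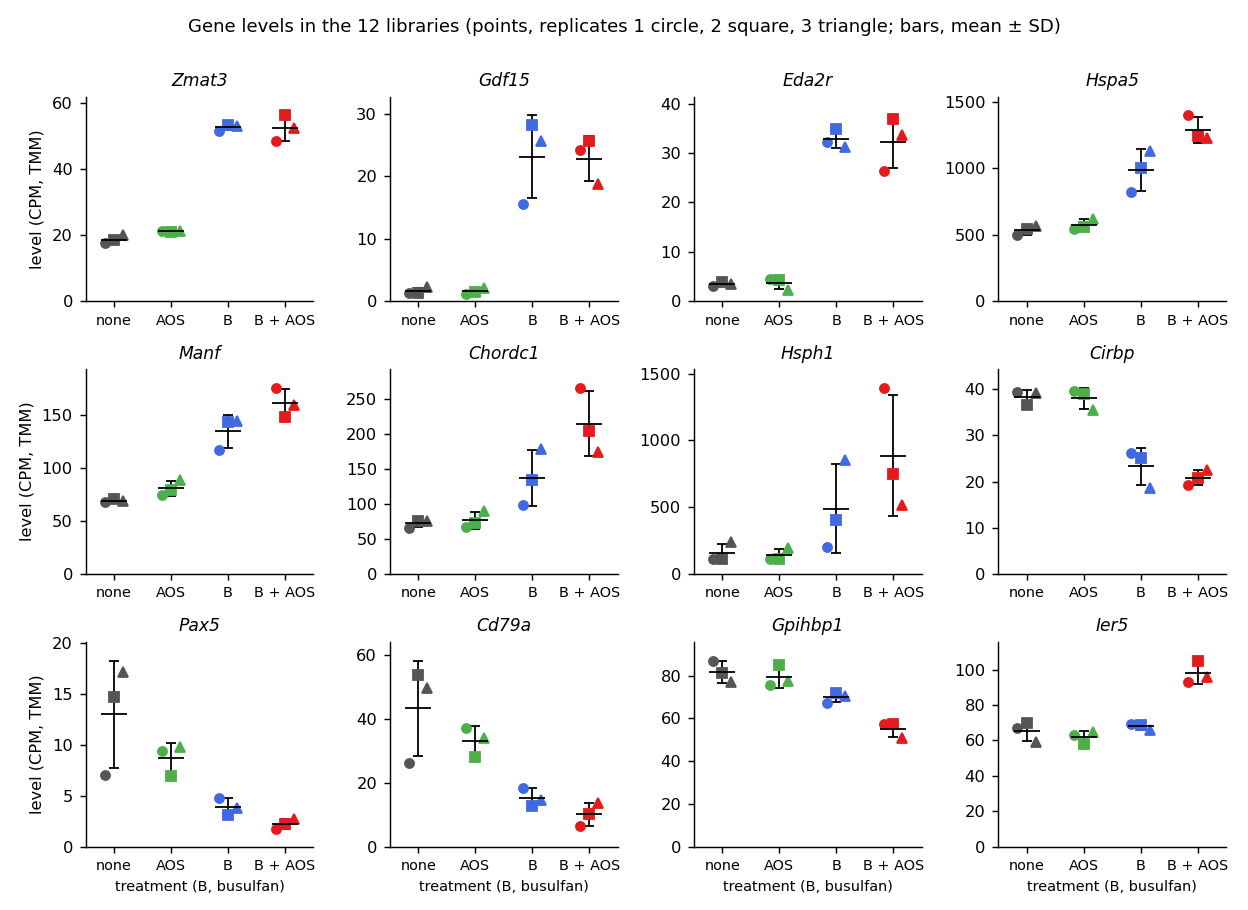
Level in CPM of 12 genes in each of the 12 libraries by treatment (none, AOS, B for busulfan, both), with the mean and SD of 3 libraries. Zmat3, Gdf15 and Eda2r are high in the busulfan and combined groups alike, Hspa5 and Chordc1 are highest in the combined group on average, and Ier5 is higher in the 3 combined libraries (93.0 to 105 CPM) than in all others.

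B cell transcripts made the list with the most members that fell. Of 26 measured 19 fell (background 1.65%) and 0 rose, with a median log2 fold change of -1.82, and all 26 had a fold change below 0. In bulk tissue, fewer B cells and less RNA per B cell cannot be told apart. The summed level was 302, 574 and 523 CPM in controls and 157, 192 and 220 CPM in the combined group, which did not overlap, control replicate 1 being the lowest control. Libraries of the other groups lay at 342 to 422 CPM with AOS alone and 181 to 252 CPM with busulfan alone. On dropping control replicates 2 and 3 in turn 8 and 9 members passed, on dropping AOS replicate 1 12, and on dropping combined replicates 1 and 2 10 and 7. DESeq2 called 21 of the members, limma-voom 14 and the edgeR fit of only the compared groups 4.

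Pax5, the transcription factor that keeps B cells committed, stood at 7.05, 14.7 and 17.2 CPM in controls and 1.75, 2.21 and 2.71 CPM in the combined group (log2 fold change -2.54, SE 0.33, edgeR adjusted p = 0.00457). Every combined value was under the lowest control value. Fcer2a, a surface receptor that binds immunoglobulin E weakly, had the lowest fold change of the list at -2.72 (SE 0.39), from 9.04, 19.4 and 18.1 CPM to 1.63, 2.03 and 3.36 CPM. The inhibitory receptor gene Cd22 (log2 fold change -2.06, SE 0.29) and the transcription factor gene Spib (-1.80, SE 0.28) also fell, and both kept their calls in all 12 fits without a library, though Spib lost its call in the fit of only the compared groups (edgeR adjusted p = 0.0586). The surface protein gene Ms4a1 fell by 1.97 (SE 0.38), from 12.5, 38.2 and 26.4 CPM to 4.26, 6.82 and 8.54 CPM, a call that ended without control replicate 2 or 3 or combined replicate 1 or 2 (edgeR adjusted p up to 0.0796). Not past the threshold were the transcription factor genes Ebf1 (-0.28, SE 0.21) and Bach2 (-0.19, SE 0.18) and the receptor gene Btla (-0.24, SE 0.22). Outside the list, Bank1, a scaffold of B cell receptor signalling, fell by 2.22 (SE 0.36) and Bcl11a, a lymphoid transcription factor gene, fell by 2.13 (SE 0.42), with both calls ending without control replicate 2 or combined replicate 1 or 2, and that of Bcl11a also without control replicate 3 (edgeR adjusted p up to 0.0573 and 0.0809).

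Few genes of antigen presentation passed. Of 12 genes of MHC class II 2 fell (background 1.65%), H2-Ob and H2-Oa, whose products form the H2-O modulator found mainly in B cells. H2-Ob stood at 19.5, 33.9 and 34.4 CPM in controls and 5.76, 6.88 and 8.13 CPM in the combined group (log2 fold change -2.08, SE 0.27), a call kept in all 12 fits without a library. H2-Oa, at 1.99 to 3.13 CPM in controls and 0.180 to 0.814 CPM in the combined group, kept its call only without busulfan replicate 1 or 3 (otherwise edgeR adjusted p up to 0.108). The median log2 fold change of the list was -0.20, and the summed level was 1306 to 1653 CPM in controls and 1065, 1297 and 1726 CPM in the combined group. Fold changes of single members ran from -6.64 to 1.26 on the log2 scale. In the combined group 1 member, not past the threshold, was at 0 in all 3 libraries.

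Other blood cell lists moved less, and their counts are read against the 1.65% of all genes that fell. Among 21 T cell genes 1 fell, the homing receptor gene Ccr7 (-1.28, SE 0.31, edgeR adjusted p = 0.0450), a call kept only without AOS replicate 3 or combined replicate 3 (otherwise up to 0.133) and not made by limma-voom; the T cell receptor chain gene Cd3e and the coreceptor gene Cd4 did not pass, and the list's median was -0.13. Of 9 lymphoid follicle genes 3 fell: Ccr7, the chemokine receptor gene Cxcr5, which guides B cells into follicles, and Ltb, a lymphotoxin chain that organises them. Ltb stood at 19.3, 19.2 and 20.9 CPM in controls and 7.26 to 11.3 CPM in the combined group (log2 fold change -1.01, SE 0.18), and its call ended without any single control replicate (edgeR adjusted p up to 0.0605). Cxcr5 fell by 1.92 (SE 0.37), a call that ended without control replicate 2 or 3 or any combined replicate (up to 0.0801). Plasma cell, natural killer, alveolar macrophage, monocyte, neutrophil, mast cell and platelet lists had 0 members past the threshold in limma-voom and in the edgeR fit of all 12 libraries. DESeq2 called 1 plasma cell gene higher and 1 lower and 2 alveolar macrophage genes higher. In edgeR 1 plasma cell gene was called higher without AOS replicate 2, and 2 monocyte genes lower without combined replicate 3.

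Red cell transcripts were also lower, with fewer members past the threshold than in the B cell list. Of 13 erythroid genes 3 fell (background 1.65%) and 1 rose (background 2.43%), with a median log2 fold change of -0.77. The summed level was 10240, 21530 and 14120 CPM in controls and 8118, 4998 and 5623 CPM in the combined group, which did not overlap, against 10750 to 17750 CPM with busulfan alone. Alas2, the enzyme that starts haem synthesis in red cells, stood at 136, 308 and 216 CPM in controls and 113, 75.2 and 75.7 CPM in the combined group (log2 fold change -1.32, SE 0.29, edgeR adjusted p = 0.0358). Its call ended without control replicate 2 or 3, AOS replicate 1 or 2, or any combined replicate (edgeR adjusted p up to 0.117). The alpha globin genes Hba-a1 and Hba-a2 fell, with log2 fold changes of -1.32 (SE 0.30) and -1.42 (SE 0.31), with calls that ended without AOS replicate 1, control replicate 2 or 3 or any combined replicate, and for Hba-a1 also without AOS replicate 2 or 3 or busulfan replicate 1 (edgeR adjusted p up to 0.129 and 0.116). Without combined replicate 1 other members, Hbb-b1, Hbb-b2 and Slc4a1, passed in their place, and the fit of only the compared groups called 0 of the list. The near-identical sequences of both alpha globin genes leave the split of reads uncertain.

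The erythroid gene that rose was Hbb-bs, and its fold rested largely on 1 library. Hbb-bs was at 0.121, 0.243 and 0.355 CPM in controls and at 15.5, 2.09 and 819 CPM in combined replicates 1, 2 and 3 (log2 fold change 10.14, SE 2.26, edgeR adjusted p = 0.0371). The adult beta globin genes of mice come in alternative haplotypes, 1 with Hbb-bs and Hbb-bt and another with Hbb-b1 and Hbb-b2. The labels give only a strain name, so whether the animals differed in genotype at this locus was not tested, and the value of Hbb-bs cannot be read apart from it. Hbb-bs and Hbb-bt together made 43.0% of the beta globin reads in combined replicate 3, 0.577 and 0.118% in combined replicates 1 and 2, and 0.00475 to 0.0197% in the 9 other libraries. The sum over all 4 genes was lower in the combined group, at 3366, 2122 and 2230 CPM, than in controls, at 4001, 8907 and 5492 CPM. Hbb-bs lost its call without any control or AOS replicate or busulfan replicate 1 or 2 (highest edgeR adjusted p 0.124). Without combined replicate 3 it kept its call at a log2 fold change of 5.14 (edgeR adjusted p = 0.0192), and combined replicates 1 and 2 also lay above all controls. For this gene limma-voom gave an adjusted p of 0.68.

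**Figure D5:**
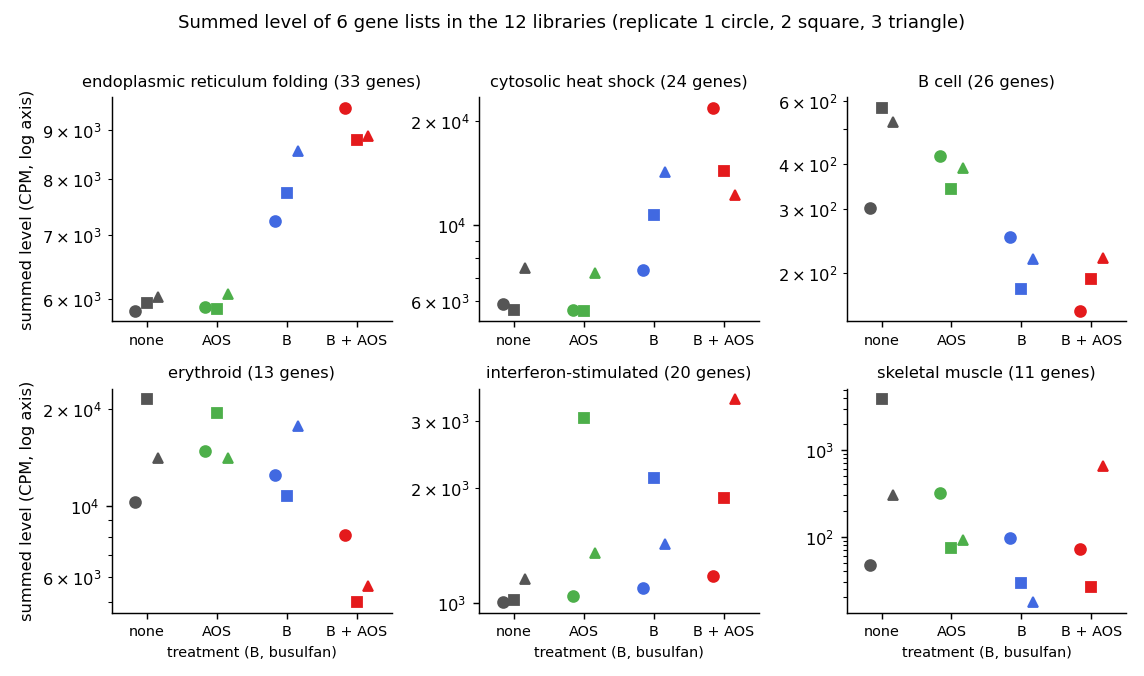
Summed level in CPM (log axis) of 6 gene lists in each of the 12 libraries by treatment (none, AOS, B for busulfan, both), symbols by replicate. Folding and heat shock sums of the combined group lie above all controls and B cell and erythroid sums below them, interferon sums spread from 1176 to 3442 CPM in the combined group against 1001 to 1152 CPM in controls, and skeletal muscle sums overlap between these groups.

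Among genes of lung structural cells, 4 of 23 endothelial genes fell (background 1.65%) and 1 rose (background 2.43%). Gpihbp1, which anchors lipoprotein lipase in capillaries, stood at 87.0, 81.2 and 77.1 CPM in controls and 57.2, 57.4 and 50.9 CPM in the combined group (log2 fold change -0.57, SE 0.07, edgeR adjusted p = 0.00396). Tek, the receptor for angiopoietins, fell by 0.71 (SE 0.10), and both calls were kept in all 12 fits without a library. The receptor gene Kit fell by 0.90 (SE 0.15), a call that ended without combined replicate 1 (edgeR adjusted p = 0.0555), and the apelin receptor gene Aplnr fell by 1.17 (SE 0.23), a call that ended without control replicate 1 or 2 or any combined replicate (up to 0.0835). Prx, the gene of the scaffold protein periaxin, rose from 146, 151 and 212 CPM to 320, 322 and 289 CPM (log2 fold change 0.87, SE 0.14), and lost its call without control replicate 2 (edgeR adjusted p = 0.0522). The summed level of the list overlapped, at 8339 to 9605 CPM in controls and 7804 to 8965 CPM in the combined group.

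Matrix and growth factor genes rose in few cases. Of 31 matrix genes 2 rose (background 2.43%), calls too few to be read as a change of the list, and DESeq2 called 6 higher. The median log2 fold change was 0.27, as with busulfan alone. A fold change above 0 was seen in 28 of the 31, against 7705 of all 15863 genes. In 13 the groups did not overlap, against 26.2% of all genes. Whether the list as a whole shifted was not tested. Lox, which crosslinks collagen and elastin, rose by 0.70 (SE 0.14), and Postn, a matricellular protein, by 0.55 (SE 0.12), and neither call survived the loss of control replicate 1 or 2 or of combined replicate 1 or 2. That of Lox also ended without control replicate 3, and that of Postn without AOS replicate 1 or 2 or combined replicate 3 (edgeR adjusted p up to 0.0835 and 0.100). Of 21 genes of TGF-beta signalling 1 rose (background 2.43%), Pmepa1, an inhibitor that the pathway itself induces. Its level was 55.3, 54.6 and 54.6 CPM in controls and 85.5, 86.3 and 90.9 CPM in the combined group (log2 fold change 0.68, SE 0.09), a call kept in all 12 fits. None of the 10 ligands and receptors passed in the edgeR fit of all 12 libraries. The same held for the smooth muscle, alveolar type 1, transitional alveolar, club and goblet and ciliated cell genes. The edgeR fit of only the compared groups called 1 club and goblet gene lower. Fits without a library called at most 1 smooth muscle and 1 transitional gene higher and 1 club and goblet gene lower. DESeq2 called 1 smooth muscle, 1 alveolar type 1 and 2 transitional genes higher and 1 club and goblet gene lower.

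Single members passed in several other lists, where 2.43% of all genes rose and 1.65% fell as background. Il33, an alarmin that alveolar type 2 cells make in mice, rose from 107, 99.2 and 97.8 CPM to 163, 177 and 134 CPM (log2 fold change 0.64, SE 0.10), and lost its call without control replicate 2 (edgeR adjusted p = 0.0527). Among 9 genes of the glucocorticoid response 3 rose, the transcription factor gene Klf9 (0.75, SE 0.13), the receptor chaperone gene Fkbp5 (0.75, SE 0.16) and the metallothionein gene Mt2 (1.52, SE 0.36). None of the 3 calls held without control replicate 2 or 3 or combined replicate 1 or 2, the highest edgeR adjusted p being 0.0706, 0.114 and 0.141. Calls of Fkbp5 and Mt2 also ended without control replicate 1 or AOS replicate 2, and that of Mt2 without AOS replicate 1 or 3 or busulfan replicate 1. Of 14 senescence genes 2 rose, Gdf15 and the chemokine gene Ccl2. Ccl2 was at 0.608 to 0.887 CPM in controls and up to 4.83 CPM in combined replicate 3 (log2 fold change 1.91, SE 0.44), a call kept only without busulfan replicate 1 or combined replicate 1 (otherwise edgeR adjusted p up to 0.137). Among 19 genes of cholesterol synthesis and transport Stard4, a carrier of sterols, fell by 0.59 (SE 0.11), and among 16 Hox genes Hoxa5, needed in lung development, fell from 39.6, 51.5 and 36.1 CPM to 22.5, 22.3 and 16.3 CPM (log2 fold change -1.06, SE 0.18). Stard4 lost its call without control replicate 1 or 2 or any combined replicate (edgeR adjusted p up to 0.0796) and Hoxa5 without control replicate 2 (0.0570). NRF2, glutathione transferase, clock, heart muscle, fat, ribosomal protein and oxidative phosphorylation lists had 0 members past the threshold in limma-voom and in the edgeR fit of all 12 libraries. DESeq2 called 3 NRF2 genes higher, 3 clock genes higher and 2 lower, and 1 of 76 ribosomal protein genes higher and 8 lower. Fits of edgeR without a library called up to 3 NRF2 genes higher, 1 clock gene higher or lower and 1 ribosomal protein gene lower.

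Several of the strongest changes belonged to no list. Banp, a nuclear protein that binds DNA, rose from 21.1, 21.4 and 20.5 CPM to 59.4, 48.0 and 46.8 CPM (log2 fold change 1.29, SE 0.10, edgeR adjusted p = 3.04e-04). The D-glutamate cyclase gene Dglucy rose from 14.2, 15.1 and 12.1 CPM to 30.1, 32.6 and 32.1 CPM. Both kept their calls in all 12 fits. The ubiquitin ligase gene Rnf144a fell from 218, 205 and 195 CPM to 102, 88.3 and 115 CPM (log2 fold change -1.02, SE 0.13), and so did, from low levels, the receptor gene Gpr18 (-1.58, SE 0.21), the zinc finger gene Zc3h6 (-1.24, SE 0.17) and Clcf1, a cytokine of the interleukin 6 family (-1.17, SE 0.16). All 4 were called in every fit without a library.

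Large fold changes at low level were less firm. Trim69, a ubiquitin ligase gene, rose from 0.183 to 0.241 CPM, near the 0.177 to 0.188 CPM that 3 counts are worth, to 3.07, 1.97 and 1.65 CPM, a call that ended without control replicate 2 (edgeR adjusted p = 0.0570). Has2, which makes hyaluronan, rose from 0.414 to 0.669 CPM to 5.95, 3.59 and 1.71 CPM, a call that ended without any single control replicate (edgeR adjusted p up to 0.0595). The chemokine gene Ccl7 (2.66, SE 0.57), the rod transducin gene Gnat1 (2.57, SE 0.57) and the splicing factor gene Celf5 (2.23, SE 0.42) kept their calls in 5, 5 and 8 of 12 fits, all losing them without control replicate 2 or 3 or combined replicate 2 (edgeR adjusted p up to 0.108, 0.120 and 0.0855). On the lower side, the lectin gene Cd209d (-2.37, SE 0.41), the calcium channel gene Cacna1i (-2.15, SE 0.38) and the collagen gene Col6a4 (-2.15, SE 0.52) kept theirs in 9, 10 and 2, all losing them without combined replicate 1 or 2 (highest edgeR adjusted p 0.0632, 0.0636 and 0.153).

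The combined group was set beside each single treatment to ask where it differed from them. These comparisons share the combined libraries, and those against control share the control libraries. Against busulfan alone 0 genes passed in edgeR (0% of all tested), with 1006 genes at an unadjusted p under 0.05 (6.34%), 0 calls by limma-voom and 29 by DESeq2. Against AOS alone 365 passed (2.30%), 247 higher (1.56%) and 118 lower (0.744%). Dropping control replicate 2 took it to 220, dropping AOS replicates 1, 2 and 3 in turn to 42, 67 and 132, and dropping combined replicates 1 and 2 to 87 and 64. Busulfan alone differed from control in 192 genes (1.21%), 116 higher (0.731%) and 76 lower (0.479%), and AOS alone in 0 (642 at an unadjusted p under 0.05, 4.05%).

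Side by side, the p53 list had a median log2 fold change over control of 0.37 in the combined group, 0.30 with busulfan alone and 0.02 with AOS alone. For Zmat3 the combined group minus busulfan was -0.01 (SE 0.07). The folding list had medians of 0.57, 0.38 and 0.02, and the heat shock list 1.35, 0.68 and -0.06. Against busulfan alone, 23 of 24 heat shock genes and 25 of 33 folding genes were higher in the combined group. Their medians were 0.64 and 0.18 on the log2 scale, against -0.0037 for all genes. Of the 24 and 33 genes, 10 and 13 had an unadjusted p under 0.05 against 6.34% of all genes, and 0 passed with adjustment. Members of a list come from the same libraries and are not independent. The heat shock sums overlapped, at 7396 to 14220 CPM after busulfan alone and 12230 to 21890 CPM in the combined group. The folding sums did not, at 7245 to 8564 and 8796 to 9504 CPM. For Hspa5 the difference was 0.39 (SE 0.11; adjusted p = 0.770 in edgeR), with 817, 998 and 1131 CPM after busulfan alone, all under the lowest combined value. For Hsph1 busulfan replicate 3, at 853 CPM, lay within the combined range of 514 to 1393 CPM.

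The B cell list had medians over control of -1.82 in the combined group and -1.37 with busulfan alone. The difference between these groups had a median of -0.30, with 2 of 26 members at an unadjusted p under 0.05, against 6.34% of all genes. In the erythroid list 7 of 13 genes had an unadjusted p under 0.05 against busulfan alone (6.34% of all genes), with a median difference of -0.68 and 0 passing with adjustment. Alas2 was at 186, 145 and 251 CPM after busulfan alone, above all combined values.

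Ier5, an immediate early response gene, had the smallest p against busulfan alone. It stood at 66.8, 69.8 and 59.3 CPM in controls, 62.8, 57.8 and 64.9 CPM with AOS, 69.3, 68.9 and 65.9 CPM with busulfan, and 93.0, 105 and 95.8 CPM with both. The combined values lay above all 9 others. The log2 fold change was 0.58 (SE 0.07) over control, kept in all 12 fits without a library, and 0.53 (SE 0.07) over busulfan alone, where it missed the threshold in edgeR (adjusted p = 0.414, unadjusted p = 2.61e-05) and passed in DESeq2 (adjusted p = 3.00e-06). Among annotated genes, Aph1b and Aox1 came next by p. These were Aph1b, a subunit gene of gamma-secretase, at 36.4 to 40.0 CPM in the combined group and 29.4 to 31.7 CPM with busulfan alone (difference 0.33, SE 0.06), and the aldehyde oxidase gene Aox1 (0.87, SE 0.17), which after both treatments stood at 136, 76.9 and 86.6 CPM, against control values of 82.0 to 93.7 CPM. Mup2, a major urinary protein gene expressed mainly in liver, had 20.2, 6.46 and 7.95 CPM in the combined group and 0.120, 1.76 and 0.368 CPM with busulfan alone. The liver sum was 25.2 to 58.3 CPM with busulfan alone, and 9 of the 12 liver genes had an unadjusted p under 0.05 in this comparison, all of them higher in the combined group. The part of these transcripts was not tested.

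Departure from additivity, the combined change minus the sum of the changes under each single treatment, passed for 0 genes in edgeR (0% of those tested), with 760 at an unadjusted p under 0.05 (4.79%) and 16 called by DESeq2. Without control replicate 3 the edgeR count was 1, Ppard, a nuclear receptor gene that was listed at 0, 0.183 and 24.8 CPM in the controls and named here after its value was seen. A difference in genotype between these control libraries was not tested. For Ier5 the departure was 0.60 (SE 0.11, edgeR adjusted p = 0.989, DESeq2 adjusted p = 0.00277).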

How the data were processed

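RNA was sequenced from lung of 4 groups with 3 libraries each. The authors deposited 1 table of 19726 genes with estimated counts per library, not normalised, with 75.9 to 77.1% of values whole in each library. The deposited table also holds FPKM values, named so here from how they relate to the counts, which entered no test. Per the submitters' processing notes, mm10 was the genome build; aligner, counter and strand setting are not given in the sources used, so overlapping and antisense genes cannot be told apart. Identifiers were Entrez gene IDs except 1014 of the sequencing provider.

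Estimated counts were rounded, filtered with filterByExpr (15863 genes) and scaled by TMM (factors 0.963 to 1.03). edgeR 4.0.16 in R 4.3.3 fitted 1 mean per group to all 12 libraries (common biological coefficient of variation 0.229) and tested contrasts with the quasi-likelihood F test, Benjamini-Hochberg adjustment over all genes and a threshold of 0.05. SEs derive from the F statistic, with a median of 0.132. In these libraries 3 counts, the upper limit when none is seen, correspond to 0.177 to 0.188 CPM, for counting error alone. Coordinates, from RefSeq on GRCm38, the assembly mm10 names, matched 15170 tested genes. Pairs of libraries within a group differed by more than sampling noise. Alternatives were DESeq2 1.42.0, scaling by upper quartiles and by median ratios, limma-voom (limma 3.58.1), no filter, at least 1 CPM in 3 libraries, only the compared groups, the replicate block and leaving out each library. Where the text says that a call ended without a library, the model was refitted without it. Figures used Python 3.11.15, numpy 2.4.6, pandas 2.3.3 and matplotlib 3.10.9.

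The comparison, the 45 gene lists and the tests were chosen with earlier results of these data known. Genes named were, per direction, the 12 smallest p among calls with a log2 fold change of 1 or more in size, the 10 largest called fold changes without overlap at 1 CPM or more in a group, up to 6 members per list with a called gene, and the 6 smallest p in the other contrasts, without predicted genes in the first parts. Members named as not past the threshold, promoter motif matches, and Herpud1, Ddit3, Xbp1, Hsp90b1, Pmaip1, Bbc3, Mdm2, Ms4a1, the heat shock genes Hspa1a, Hspa1b and Dnajb1, and Ppard were chosen after their values were seen. Some genes that this rule takes are left out of the text.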

Additional observations from a re-analysis of the deposited data

How the results depend on the processing

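No gene called between the combined group and control changed sign under an alternative. The count of 648 (386 higher, 262 lower) became 1414 with DESeq2 (850, 564), 281 with the replicate block (172, 109; 273 shared) and 166 with only the compared groups (109, 57; 144 shared). Without 1 library it ranged from 129 to 710 (higher 76 to 439, lower 53 to 271). It stayed within 1.5 times with upper-quartile (672) and median-of-ratios scaling (628), no filter (504), the 1 CPM minimum (657) and limma-voom (614). The 365 calls against AOS alone became 1249 with DESeq2, 163 with the replicate block, 191 with only the compared groups and 42 to 492 without 1 library. Against busulfan alone the count was 29 with DESeq2 and 0 to 0 without 1 library, and for departure from additivity 16 and 0 to 1. The cause was not tested, except that fewer samples enter some fits. Same-numbered control and combined libraries had correlations of deviations of 0.0556, -0.251 and -0.129, so the numbers were not taken as pairs. At 3 libraries a group, dropping any control replicate, or combined replicate 1 or 2, ended most of the heat shock and TRiC calls.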

Other observations

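Interferon-stimulated genes varied widely between libraries of a group. The median log2 fold change of 20 such genes was 1.60 in the combined group over control, and all 20 were above 0. In limma-voom and in the edgeR fit of all 12 libraries 0 passed, with 3 called by DESeq2 and 1 by edgeR without AOS replicate 2. The summed level was 1001, 1016 and 1152 CPM in controls and 1176, 1882 and 3442 CPM in the combined group. AOS replicate 2 stood at 3056 CPM and busulfan replicate 2 at 2130 CPM. In 5 of the 20 genes all combined values lay above all controls, which was so for 13.3% of all genes.

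The class I gene H2-D1, which presents peptides to killer T cells, was chosen here after its value was seen. It stood at 1139, 974 and 938 CPM in controls and 1503, 1609 and 1986 CPM in the combined group (log2 fold change 0.74, SE 0.14, edgeR adjusted p = 0.0196). With AOS it was at 1009, 1132 and 1394 CPM and with busulfan at 1096, 1132 and 1018 CPM, all under the lowest combined value. The call over control ended without control replicate 2 or 3 or combined replicate 2 (edgeR adjusted p up to 0.0783). Class I genes differ between mouse strains and have close relatives, so the split of reads among them is uncertain.

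The transporter gene Slc7a11, which imports cystine, was at 17.5 CPM in combined replicate 1 and 3.18 CPM in combined replicate 3, at 2.86 to 3.79 CPM in controls and at 1.70 to 2.45 CPM after busulfan alone. It did not pass over control (log2 fold change 1.44, SE 0.48, edgeR adjusted p = 0.116). Like the heat shock genes Hsph1 and Hspa8 it was highest in combined replicate 1, whereas the interferon sum and Hbb-bs were highest in combined replicate 3.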
